A study of Mus musculus with 6 samples.

Results

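Interferon-stimulated genes are the genes whose transcription rises when a cell receives interferon. Their resting levels were compared here in mouse haematopoietic stem cells (HSCs) sorted by surface CD38, an enzyme that consumes NAD. The members are 39 genes listed by symbol, each found as exactly 1 Ensembl gene among the 49585 in the count files, and all 39 were among the 14785 genes with enough reads to test. The bone marrow came from untreated C57BL/6 mice aged 8 to 16 weeks, with no transgene or deletion in the labels. The cells were sorted as negative for lineage markers, CD48 and CD34 and positive for Kit, Sca-1, CD150 and CD201, then divided into CD38-high (CD38-positive, 3 libraries) and CD38-low (CD38-negative, 3 libraries). Each library holds the pooled HSCs of 10 mice, so variation between single mice cannot be seen. The series matches 1 CD38-positive with 1 CD38-negative library in each of 3 pairs and does not say what a pair shares. The main fits hold both pair and population. Their p-values are therefore set against how far the difference between populations varied from pair to pair.

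Type I interferons bind a receptor built from Ifnar1 and Ifnar2, whose kinases activate a transcription factor complex containing Stat2 and Irf9. The complex binds the interferon-stimulated response element (ISRE) of target promoters. Type II interferon, Ifng, signals through Ifngr1 and Ifngr2 to targets that carry the gamma-activated site (GAS). In bone marrow, interferon is known for driving dormant HSCs into division, which is why resting levels of the target genes are of interest in a study of dormancy.

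Promoters of 5 members are shown because later results name these genes, though no expression result was split by motif. Gbp7, Igtp and Rsad2 were among the members with the smallest p-values between pairs, Isg15 had the widest gap within a pair, and Irf1 was higher in every CD38-positive library. The 250 bases before a RefSeq start on GRCm38.p6 are written 5′ to 3′ on the gene's strand, and capitals mark matches to an ISRE-type motif (GAAA, any 2 bases, GAAA, on either strand) or to a GAS-type motif (TTC, any 3 bases, GAA, which reads the same on both strands). The windows are chr3:142530086-142530335 for Gbp7 (plus strand), chr11:58199306-58199555 for Igtp (plus), chr12:26456453-26456702 for Rsad2 (minus), chr4:156200819-156201068 for Isg15 (minus) and chr11:53769764-53770013 for Irf1 (plus).
Gbp7: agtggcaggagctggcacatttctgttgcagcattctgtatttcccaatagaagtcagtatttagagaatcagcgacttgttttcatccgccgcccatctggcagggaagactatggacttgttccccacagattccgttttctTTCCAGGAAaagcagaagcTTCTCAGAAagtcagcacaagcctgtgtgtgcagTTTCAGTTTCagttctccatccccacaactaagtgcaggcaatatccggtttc
Igtp: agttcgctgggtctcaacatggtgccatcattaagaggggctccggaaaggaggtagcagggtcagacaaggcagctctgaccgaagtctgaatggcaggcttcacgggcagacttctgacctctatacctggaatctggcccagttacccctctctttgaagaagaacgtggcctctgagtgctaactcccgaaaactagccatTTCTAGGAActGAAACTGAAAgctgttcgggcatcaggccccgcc
Rsad2: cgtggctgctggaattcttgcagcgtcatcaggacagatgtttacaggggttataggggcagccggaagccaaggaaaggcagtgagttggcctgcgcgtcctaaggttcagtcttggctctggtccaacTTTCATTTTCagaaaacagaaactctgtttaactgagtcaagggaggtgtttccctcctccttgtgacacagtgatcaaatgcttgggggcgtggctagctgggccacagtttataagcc
Isg15: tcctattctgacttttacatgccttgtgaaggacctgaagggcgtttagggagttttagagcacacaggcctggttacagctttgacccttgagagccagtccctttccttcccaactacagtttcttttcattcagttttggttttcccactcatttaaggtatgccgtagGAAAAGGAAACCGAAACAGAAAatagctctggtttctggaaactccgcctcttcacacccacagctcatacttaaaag
Irf1: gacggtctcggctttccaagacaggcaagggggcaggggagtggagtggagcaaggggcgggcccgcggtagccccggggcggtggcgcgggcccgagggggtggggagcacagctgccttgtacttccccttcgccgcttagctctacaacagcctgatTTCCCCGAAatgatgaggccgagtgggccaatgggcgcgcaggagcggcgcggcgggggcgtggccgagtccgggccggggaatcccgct

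The ISRE-type match began 59 bases before the start in Gbp2 (sequence not shown), 53 in Gbp7, 34 in Igtp and 120 in Rsad2. Isg15 had 3 overlapping ISRE-type matches, beginning 78, 72 and 66 bases before the start. Gbp7 had 2 GAS-type matches, at 106 and 87 bases, Igtp had 1 at 45 bases and Irf1 had 1 at 90 bases and no ISRE-type match in this window. RefSeq promoter windows were matched for 31 of the 39 members, with 36 windows in all. An ISRE-type match was in 14 of the 36 windows (38.9%), against 2.98% of all 32851 windows of the same length. A GAS-type match was in 7 (19.4%), against 7.02% of all windows, and 4 member windows held both motifs. These are letter matches, not measured binding.

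Depth was even, at 16771180 to 18558610 counts per library, so 3 counts correspond to 0.166 to 0.183 on the depth-scaled CPM scale (library sizes scaled by TMM). All 12 HSC marker genes examined were detected in every library, but together they took only 851 to 2408 CPM, while 12 neutrophil genes took 71084 to 161295 CPM. The label of lineage-negative HSCs therefore stands beside abundant granulocyte transcripts in every library. Transcripts of Cd48 and Cd34, whose surface proteins the sort was to exclude, were at 53.5 to 144 CPM and 203 to 291 CPM. Transcript and surface protein are different measures, so these values do not test the sort. Cd38 itself had 37.0, 46.3 and 58.3 CPM in the CD38-positive libraries against 24.2, 35.6 and 23.9 CPM in their partners, without overlap.

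Interferon-stimulated genes were detected in the libraries of both populations without treatment. Which cells of a pool their transcripts came from, HSCs or others, was not tested. The members' median level was 14.1 CPM per kilobase of exon, against 3.91 for all tested genes, and 33 of the 39 members lay above that value. Levels between genes are compared here only on this per-length scale. Ifitm3, a membrane protein that blocks virus entry, was highest at a mean of 833 CPM per kilobase over the 6 libraries. Next came Lgals3bp, a secreted glycoprotein, at 77.2, Bst2, the tetherin that holds budding virions on the cell, at 61.7, and Igtp, an immunity-related GTPase, at 48.6. At the other end were Mx1 and Mx2, dynamin-like antiviral GTPases, at 0.431 and 0.476 CPM per kilobase, the oligoadenylate synthetase Oas2 at 1.12 and Isg15, the ubiquitin-like modifier, at 1.92. C57BL/6 mice are known to carry a deletion in Mx1, and the annotation lists Mx2 as a polymorphic pseudogene. The bulk of the list lay between these ends, and no member was absent from any library.

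**Figure D1:**
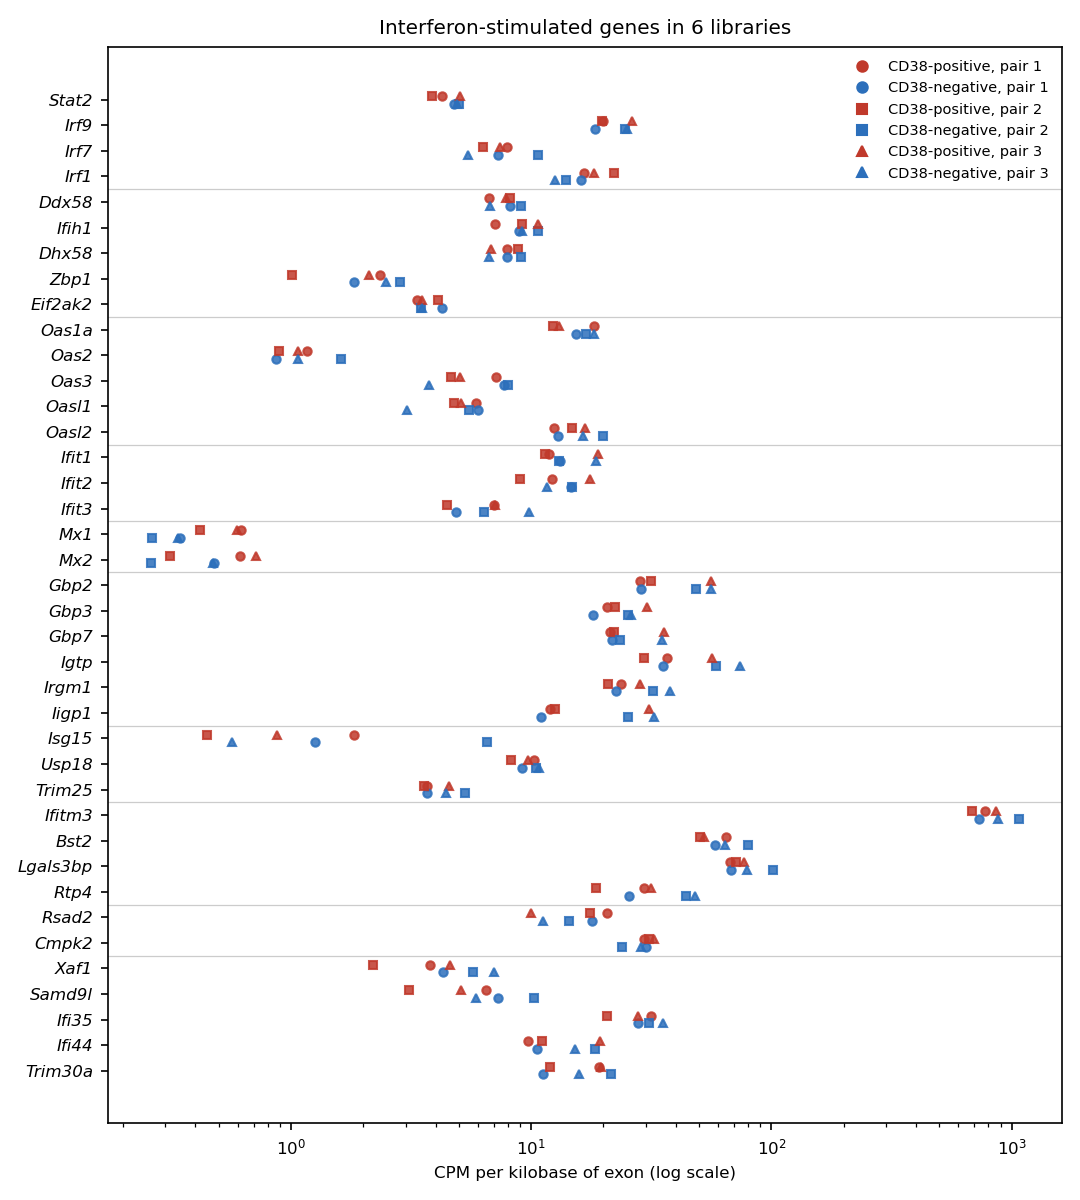
Level of each of the 39 interferon-stimulated genes in the 6 libraries, in CPM per kilobase of exon on a log axis, with genes grouped by role and separated by grey lines. Red is CD38-positive, blue is CD38-negative and the marker shape gives the pair; Ifitm3 is highest at a mean of 833 and Mx1 lowest at 0.431, and the colours are mixed in most rows.

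The interferons themselves were all but undetected. Of 21 ligand genes, 17 had no read in any library, and the other 4 (Ifnab, Ifnk, Ifnz and Ifng) had 19 reads in all among 103773344. The CD38-negative library of pair 2 had the most, 9 reads over the 4 genes, and both libraries of pair 3 had 0, which allows up to 3 counts each. None of the 21 had enough reads to test. This limit covers counting error only.

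By population, no member differed past the threshold, a Benjamini-Hochberg adjusted p-value of 0.05 across the tested genes, in edgeR's quasi-likelihood test with the pair as a replicate block. The count was 0 of 39, where the background was 2 of 14785 genes (0.0135%), and DESeq2 and limma-voom also called 0 members. Xaf1, Samd9l and Rtp4 had unadjusted p-values under 0.05, 3 members or 7.69% of the list against 5.08% of all genes, and all 3 were lower in CD38-positive cells (background 2.61%). Adjusted p-values of the members ran from 0.925 to 0.998. The fitted value was lower in CD38-positive cells for 31 of 39 members, against 49.9% of all genes, with a median log2 fold change of -0.15 against 0.00 for all genes. The pairs are taken in turn next, since this lean was not seen in each of them. The standard error of the members' fold changes had a median of 0.22 and reached 0.79 for Isg15, so the data leave room for moderate differences in either direction.

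Within pairs the members behaved differently. In pair 2, 33 of 39 were lower in the CD38-positive library (background 51.3%), and 21 were lower by more than 0.5 on the log2 scale (background 25.2%). In pair 1 the count lower was 16 (background 49.7%) and in pair 3 it was 18 (background 47.4%), with 0 and 2 lower by more than 0.5 (backgrounds 9.56% and 11.7%). The medians of the log2 difference, CD38-positive minus CD38-negative, were 0.05, -0.51 and 0.02 in pairs 1, 2 and 3, against 0.00, -0.02 and 0.03 for all genes. Without pair 2 the median of the fitted fold changes was 0.00 and 20 of 39 were higher in CD38-positive cells. Only 4 members were lower in all 3 pairs (Gbp2, Lgals3bp, Samd9l and Xaf1; background 11.3%) and 3 were higher in all 3 (Irf1, Mx1 and Mx2; background 13.2%).

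**Figure D2:**
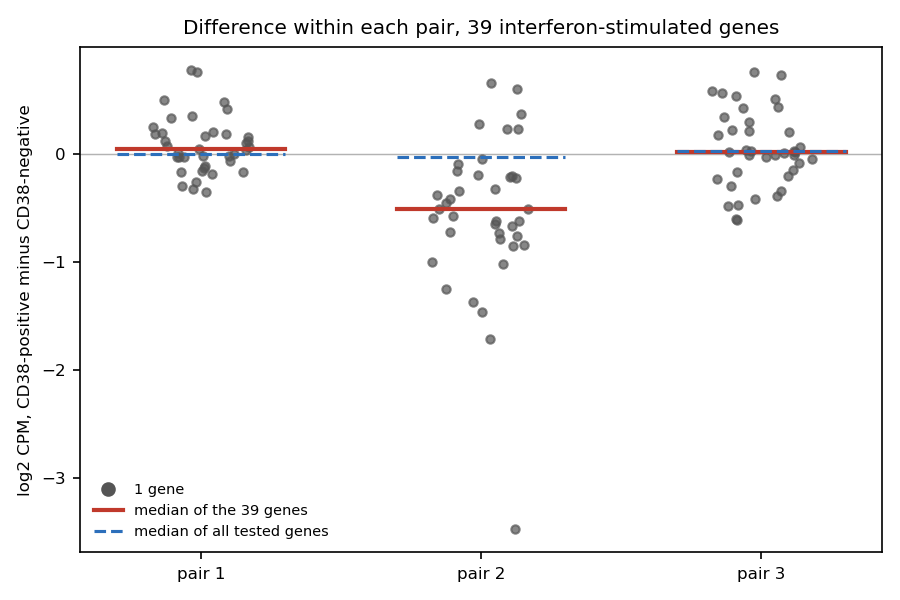
Difference in log2 CPM between the CD38-positive and the CD38-negative library of each pair, with 1 point for each of the 39 genes. Red lines are the medians of the 39 genes (0.05, -0.51 and 0.02) and dashed blue lines those of all tested genes; the points of pair 2 lie mostly below 0, down to -3.48 for Isg15.

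Summed over the 39 genes, the level in pair 2 was 2384 CPM in the CD38-positive and 3343 CPM in the CD38-negative library, a ratio of 1.40. The corresponding sums were 2552 and 2476 CPM in pair 1 and 3132 and 3168 CPM in pair 3. The CD38-negative library of pair 2 was the highest of the 6 for 15 members (background 20.6%), and its CD38-positive partner the lowest for 17 (background 22.6%). HSC markers differed in the same direction in pair 2, with sums of 1054 and 2408 CPM. In the other pairs the HSC marker sums were 851 and 1088 CPM in pair 1 and 1849 and 1632 CPM in pair 3, CD38-positive first. The members' sums differed little there, with ratios of 0.970 in pair 1 and 1.01 in pair 3, CD38-negative over CD38-positive. With unscaled library totals these ratios were 1.06 and 0.921, so the members' direction in pairs 1 and 3 depended on the scaling. Across libraries, the CD38-negative library of pair 2 and both libraries of pair 3 had the highest sums of both lists. In pair 2, Kit, the stem cell factor receptor, was at 110 CPM in the CD38-positive and 556 CPM in the CD38-negative library. This was the widest difference of the 12 HSC markers in that pair, where their median log2 difference was -1.04. Slamf1 went the other way, at 29.6 and 23.2 CPM, CD38-positive first. Most other marker lists were also higher in the CD38-negative library of pair 2. The ratio of their sums, CD38-negative over CD38-positive, was 3.66 for B and plasma cells, 1.59 for plasmacytoid dendritic cells, 1.44 for erythroid cells, 1.34 for T and NK cells, 1.25 for endothelial cells, 1.23 for megakaryocytes, 1.13 for neutrophils and 0.940 for monocytes and macrophages. In bulk RNA, fewer cells of a type and less RNA per cell cannot be told apart. The part of cell composition in the interferon genes' difference was not tested.

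**Figure D3:**
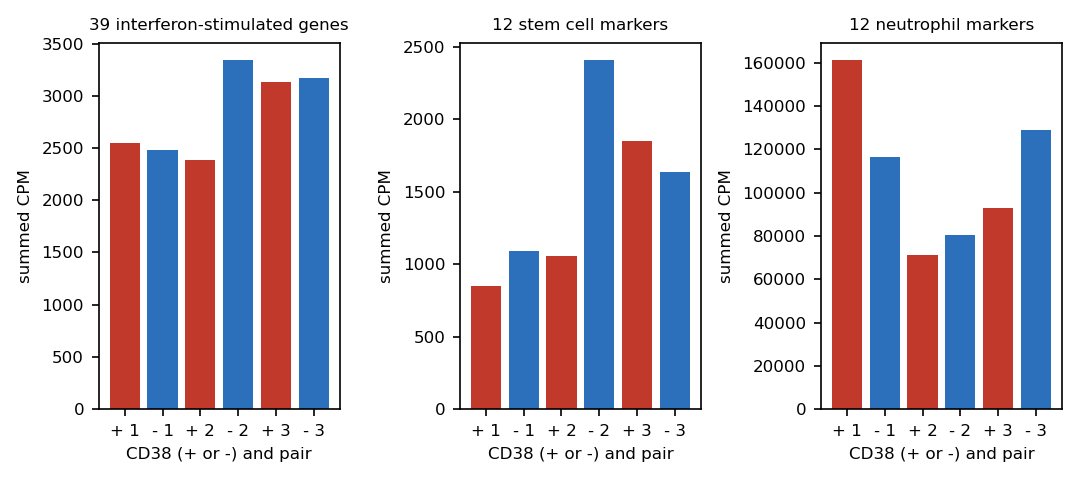
Summed CPM of the 39 interferon-stimulated genes, of 12 HSC markers and of 12 neutrophil markers in each library, as bars from 0, with + and - for CD38-positive and CD38-negative and the pair number beneath. Interferon-stimulated genes and HSC markers are both highest in the CD38-negative library of pair 2, at 3343 and 2408 CPM, where neutrophil markers are not.

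Among the transcription factors of the pathway, Irf1 had a higher fitted value in CD38-positive cells and the other 3 had lower ones, and 0 of the 4 passed the threshold. Irf1, an early target of type II interferon, was at 66.1 and 64.0 CPM in the CD38-positive and CD38-negative library of pair 1, 88.0 and 55.5 CPM in pair 2, and 72.8 and 49.95 CPM in pair 3. All 3 CD38-positive libraries lay above all 3 CD38-negative ones, though by little in pair 1. Its log2 fold change was 0.42 (SE 0.20, edgeR unadjusted p-value 0.0548, adjusted p = 0.926). Irf1 and Mx1 were the 2 members whose groups did not overlap with CD38-positive higher (background 3.33%), and 0 members did so in the other direction (background 3.19%).

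Irf7, which amplifies interferon production, was at 30.1 and 27.5 CPM in pair 1, 23.9 and 40.3 CPM in pair 2, and 27.9 and 20.6 CPM in pair 3, CD38-positive first. Its highest library was the CD38-negative one of pair 2 and its lowest the CD38-negative one of pair 3, so the populations overlapped fully. Irf9, the DNA-binding part of the complex that holds Stat2, was at 107 and 99.3, 106 and 132, and 142 and 135 CPM in pairs 1, 2 and 3. Stat2 was at 25.2 and 28.2, 22.9 and 29.6, and 29.8 and 29.2 CPM. Neither separated the populations, with log2 fold changes of -0.05 and -0.17 (SE 0.19 and 0.21). The fold change of Irf7 was -0.06 (SE 0.25), and adjusted p-values in edgeR were 0.981, 0.982 and 0.954 for Irf7, Irf9 and Stat2.

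Sensors of foreign nucleic acid and the kinase PKR gave no difference past the threshold. Ifih1 (MDA5) and Ddx58 (RIG-I), helicases that detect double-stranded RNA, had log2 fold changes of -0.11 and -0.08, and their regulator Dhx58 (LGP2) had 0.00. Eif2ak2, which encodes PKR, had -0.04 and a ratio of 1.27 between its highest and lowest library, the smallest of the 39. Zbp1, a sensor of left-handed nucleic acids that can start necroptosis, differed more: it was at 3.56 CPM in the CD38-positive library of pair 2 and 10.0 CPM in its partner. All 5 genes had fitted values at or below 0 on the log2 scale, and 0 passed the threshold (edgeR, 0 at an unadjusted p under 0.05).

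Oligoadenylate synthetases make the second messenger that activates RNase L. The family as counted here includes the Oas-like genes Oasl1 and Oasl2. Oas2 was at 5.22 and 3.87, 3.96 and 7.23, and 4.74 and 4.77 CPM in pairs 1, 2 and 3, CD38-positive first. All 5 members of the family were lower in the CD38-positive library of pair 2, by 0.21 to 0.85 on the log2 scale. Their fitted log2 fold changes ran from -0.23 for Oas1a to 0.16 for Oasl1. The 3 IFIT genes, whose proteins bind viral RNA ends, had -0.11, -0.13 and -0.16 for Ifit1, Ifit2 and Ifit3. Of the 50-base stretches in Oas1a transcripts 57.6% also occur in another gene, chiefly Oas1g, and for Ifit3 the share was 51.2%, chiefly Ifit3b. Counts of these 2 genes are therefore uncertain. In all, 9 of the 39 members shared more than 5% of such stretches, among them Gbp7 (12.7%), Igtp (11.8%), Rtp4 (11.6%), Ifi35 (10.4%) and Ifitm3 (10.0%).

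Mx1 was at 2.34 and 1.31 CPM in pair 1, 1.58 and 1.001 CPM in pair 2, and 2.26 and 1.28 CPM in pair 3, CD38-positive first. Every CD38-positive library lay above every CD38-negative one, on 28 to 41 reads against 18 to 22. Mx2 was at 2.22 and 1.73, 1.13 and 0.945, and 2.59 and 1.71 CPM; it was higher in the CD38-positive library of each pair, but the populations overlapped. The log2 fold changes were 0.77 (SE 0.44) and 0.41 (SE 0.44), with edgeR adjusted p-values of 0.926 and 0.943. These were the members with the lowest levels per length.

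Isg15, whose protein is attached to other proteins during an interferon response, had the widest range of the list. It had 23 and 16 reads in pair 1, 6 and 89 in pair 2, and 12 and 7 in pair 3, CD38-positive first. In CPM this was 1.38 and 0.953, 0.339 and 4.95, and 0.662 and 0.428. A single library, the CD38-negative one of pair 2, was thus 14.6 times its own partner, and the other 5 lay at or below 1.38 CPM. By population it was lower by a log2 value of -0.86 (SE 0.79; adjusted p = 0.936 in edgeR), and without pair 2 it was 0.56. Usp18, which removes Isg15 from proteins and damps the type I receptor, and Trim25, a ubiquitin ligase that activates RIG-I, had -0.10 and -0.17.

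Membrane and secreted products were lower in the CD38-positive library of pair 2 without exception among the 4 members. Ifitm3 was at 524 and 495, 465 and 725, and 585 and 593 CPM in pairs 1, 2 and 3, CD38-positive first. Lgals3bp was at 191 and 193, 202 and 288, and 219 and 225 CPM, and Bst2 at 58.6 and 52.5, 45.5 and 72.3, and 47.3 and 57.8 CPM. For each of the 3 the CD38-negative library of pair 2 was the highest of all, while pair 1 and, for Ifitm3 and Lgals3bp, pair 3 differed little within themselves. Rtp4, a chaperone of receptor trafficking, was at 62.6 and 54.5, 39.5 and 93.9, and 67.5 and 102 CPM. Its log2 fold change was -0.55 (SE 0.25, edgeR unadjusted p-value 0.0437, adjusted p = 0.926), with the opposite direction in pair 1.

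Xaf1 and Samd9l had the smallest p-values of the list between populations. Xaf1, which opposes the apoptosis inhibitor XIAP, was at 17.7 and 20.2 CPM in pair 1, 10.3 and 26.7 CPM in pair 2, and 21.5 and 32.8 CPM in pair 3, CD38-positive first. It was lower in CD38-positive cells in each pair, but the CD38-positive library of pair 3 lay above the CD38-negative one of pair 1. The log2 fold change was -0.72 (SE 0.26, edgeR unadjusted p-value 0.0153, adjusted p = 0.925). Samd9l, a restraint on haematopoietic cell growth, was at 35.2 and 39.5, 16.9 and 55.6, and 27.7 and 31.9 CPM, a log2 fold change of -0.68 (SE 0.29, edgeR unadjusted p-value 0.0314, adjusted p = 0.925). In Samd9l the paired differences were -0.17, -1.71 and -0.20, so most of it lay in pair 2. Of the other effectors, Ifi35 had -0.25, Ifi44 -0.17 and Trim30a 0.08.

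Rsad2 (viperin, which makes a chain-terminating nucleotide from CTP) and its neighbour Cmpk2 (a kinase that supplies CTP) did not share the pair 2 pattern. Both were higher in the CD38-positive library of pair 2, by 0.29 and 0.38 on the log2 scale. Their log2 fold changes by population were 0.11 (SE 0.19) and 0.18 (SE 0.19).

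The 3 pairs were then compared with each other, each on its 2 libraries, with population in the model. No member passed an adjusted p-value of 0.05 in edgeR's quasi-likelihood test, where the background was 17 of 14785 genes (0.115%). Unadjusted p-values were under 0.05 for 7 of 39 members, or 17.9%, against a background of 13.5%. By DESeq2, Gbp2 and Iigp1 passed, 2 of the 36 members given an adjusted p-value (background 3.05%), and by limma-voom 0 did; with no filter on low counts edgeR also called these 2 (background 2.62%). Each pair was also left out in turn, and most calls came from the contrast of pairs 1 and 3. With pair 2, where members differed most between the populations, left out of the edgeR fit, 7 members passed (Gbp2, Gbp7, Ifi44, Igtp, Iigp1, Oas3 and Rsad2), 17.9% of the list against a background of 6.23%. Among all genes that fit called 933. With pair 1 or pair 3 left out, 0 members passed (5 and 153 of all genes). Each of these fits rests on 4 libraries, and the 2 libraries of a pair are different populations. Since the fit without pair 2 omits the widest differences between populations, its p-values are not separate support.

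Guanylate-binding proteins and immunity-related GTPases, which attack the vacuoles of intracellular pathogens and are known as strong targets of type II interferon, made up most of these. Iigp1 was at 69.8 and 64.1 CPM in pair 1, 73.1 and 148 CPM in pair 2, and 179 and 189 CPM in pair 3, CD38-positive first. Both libraries of pair 3 were thus above all others, and pair 2 was split between the levels of the other pairs. The log2 difference of pair 3 from pair 1 was 1.45 (edgeR adjusted p = 0.121 over the 3 pairs, 2.08e-07 without pair 2, DESeq2 adjusted p = 0.00163).

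Gbp2 was at 71.3 and 72.4, 79.5 and 122, and 141 and 141 CPM in pairs 1, 2 and 3, a difference of 0.97 on the log2 scale between pairs 3 and 1 (edgeR adjusted p = 0.181, DESeq2 adjusted p = 0.0413). Gbp7 was at 119 and 121, 124 and 132, and 200 and 198 CPM, so that populations were level within each pair and pair 3 stood apart (0.72, edgeR adjusted p = 0.239). Igtp was at 74.6 and 71.8, 59.5 and 119, and 115 and 150 CPM (0.82, edgeR adjusted p = 0.274). By population its log2 fold change was -0.44 (SE 0.22, edgeR unadjusted p-value 0.0604, adjusted p = 0.926). Gbp3 and Irgm1 were also higher in pair 3, by 0.53 and 0.49, but did not pass without pair 2 (edgeR adjusted p = 0.126 and 0.149). These 6 guanylate-binding and immunity-related GTPases had a median difference of 0.77 between pairs 3 and 1, against 0.07 for the other 33 members. Of the 6, 4 were already named for passing this same contrast, so the medians are not separate support. The dynamin-like GTPases Mx1 and Mx2, counted among the 33, had -0.04 and 0.11.

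Outside these GTPases, Ifi44, a microtubule-associated antiviral protein, was at 59.7 and 65.1, 68.2 and 113, and 119 and 93.7 CPM in pairs 1, 2 and 3 (0.78 between pairs 3 and 1, edgeR adjusted p = 0.337). Rsad2 went the other way, at 89.3 and 77.5, 76.3 and 62.5, and 43.5 and 48.7 CPM, with both libraries of pair 3 below all others. Its difference between pairs 3 and 1 was -0.85 (edgeR adjusted p = 0.239, 0.00463 without pair 2). Oas3 was also lower in pair 3, at 35.8 and 26.5 CPM against 50.4 and 54.4 CPM in pair 1 (-0.73, edgeR adjusted p = 0.0224 without pair 2). The 7 members did not all move in 1 direction between these pairs. HSC markers were higher in pair 3 than in pair 1, with a median difference of 0.995 on the log2 scale over 12 genes, while most other marker lists were lower. Their medians were -1.32 for erythroid cells, -1.13 for plasmacytoid dendritic cells, -0.75 for megakaryocytes, -0.65 for B and plasma cells, -0.45 for T and NK cells, -0.33 for neutrophils, -0.27 for monocytes and macrophages and 0.37 for endothelial cells. Their part in these differences was not tested.

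**Figure D4:**
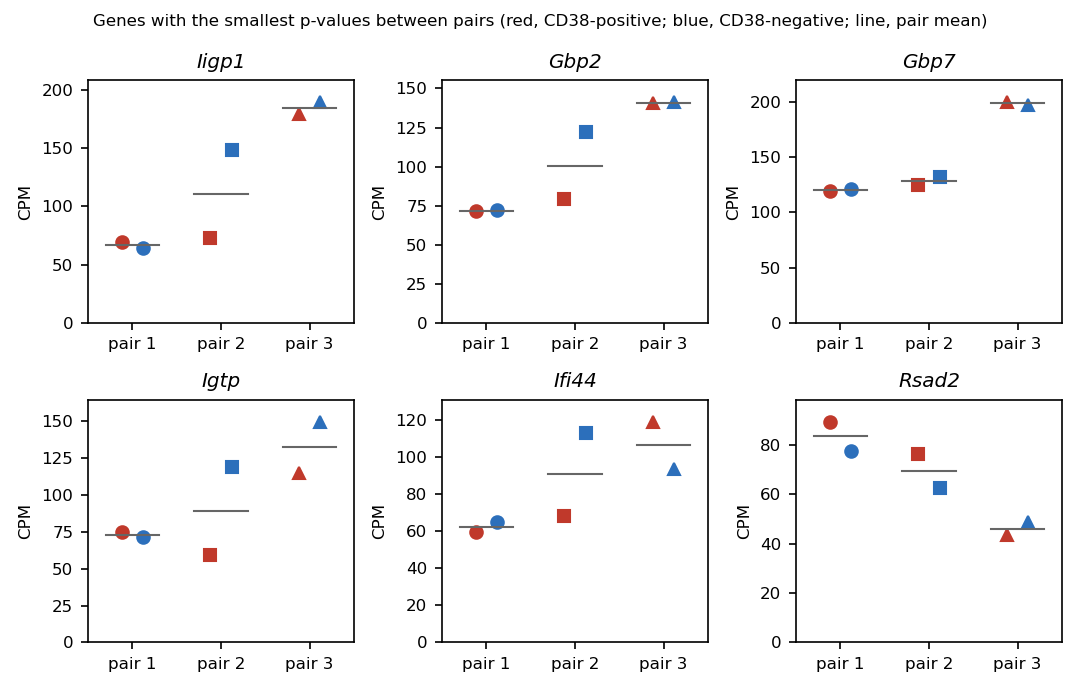
CPM of the 6 members with the smallest p-values between pairs, by pair, with CD38-positive libraries in red, CD38-negative in blue and the pair mean as a line, all axes from 0. Both libraries of pair 3 are the highest for Iigp1 (179 and 189 CPM), Gbp2, and Gbp7, and the lowest for Rsad2 (43.5 and 48.7 CPM).

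Of 74 other interferon-induced genes, 73 were tested and 0 passed by population (edgeR, background 0.0135%), with 6 at an unadjusted p under 0.05 (background 5.08%). Their median log2 fold change was -0.14, with 24 higher and 49 lower, and 58 of the 73 were lower in the CD38-positive library of pair 2. Between pairs 0 of 73 passed with all libraries (edgeR, background 0.115%), with 16 at an unadjusted p under 0.05 (background 13.5%). Without pair 2, 11 passed between pairs 3 and 1 (background 6.23%), and 7 of these belonged to the 9 guanylate-binding, immunity-related and giant GTPases of that list, a grouping made after the values were seen: Tgtp1, Tgtp2, Gbp4, Gbp6, Gbp8, Gbp9 and Irgm2, all higher in pair 3. Tgtp1 and Tgtp2 also had the smallest p-values by population with Ifi209, at -0.66, -0.53 and 0.55 on the log2 scale (edgeR adjusted p = 0.925 for each). Sequence shared with other genes was measured only for the members, so related genes of this list may not be separate calls. Trim14, an adaptor of the RIG-I pathway, was at 5.63 and 6.31, 16.1 and 23.1, and 23.6 and 14.2 CPM in pairs 1, 2 and 3 (edgeR adjusted p between pairs 0.121).

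Receptors and transducers were all expressed, and 0 of 17 passed by population (edgeR, 3 at an unadjusted p under 0.05: Irf8, Ifngr2 and Irf2) or between pairs (2 at an unadjusted p under 0.05). Ifnar1 and Ifnar2 had log2 fold changes of 0.05 (SE 0.20) and 0.36 (SE 0.20), and Ifngr1 and Ifngr2 had 0.29 (SE 0.21) and 0.47 (SE 0.20). Ifngr2 was at 80.7 and 74.9, 106 and 58.8, and 83.0 and 60.8 CPM in pairs 1, 2 and 3, CD38-positive first, and so above its partner in 3 of 3 pairs (edgeR, unadjusted p-value 0.0358, adjusted p = 0.926).

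Irf8, which directs monocyte and dendritic cell fate, had the smallest p-value of the pathway. It was at 171 and 137, 254 and 95.0, and 110 and 59.9 CPM, higher in the CD38-positive library of each pair, with a log2 fold change of 0.87 (SE 0.22, edgeR unadjusted p-value 0.00151, adjusted p = 0.695). Of 12 monocyte and macrophage markers 9 also had higher fitted values in CD38-positive cells. Their sums were 2818 and 1590, 1345 and 1264, and 1311 and 1357 CPM in pairs 1, 2 and 3, CD38-positive first. Pair 3 thus went slightly the other way. The part of these markers in the Irf8 difference was not tested. Irf2, a repressor of interferon targets, was at 45.3 CPM in the CD38-negative library of pair 2 and at 10.1 to 18.9 CPM in the other 5.

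Brakes on the pathway and upstream sensors gave no call. Of 18 brake genes tested, 0 passed by population (edgeR, 0 at an unadjusted p under 0.05), and the smallest p-values belonged to the phosphatases Ptpn1 and Ptpn2 and to Samhd1, with log2 fold changes of 0.33, 0.28 and 0.28 and edgeR adjusted p-values of 0.926, 0.930 and 0.929. Socs1, the feedback inhibitor of JAK kinases, was at 4.56 and 8.81 CPM in pair 1 and at 9.97 to 18.2 CPM in the other 4 libraries (edgeR adjusted p between pairs 0.239). Of 15 sensing genes tested, 0 passed by population (edgeR, 1 at an unadjusted p under 0.05, Nlrc3, which was under 3 counts in 1 library). Nlrx1, a mitochondrial brake on RNA sensing, was lower in pair 3, by 0.93 on the log2 scale from pair 1 (edgeR adjusted p = 0.248, 0.0315 without pair 2).

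Plasmacytoid dendritic cells, a major source of type I interferon, left few transcripts. Their markers Siglech and Ccr9 were at 0.978 to 7.85 and 0.550 to 4.14 CPM, and the 9 markers (among them Klk1, at 0 in the CD38-negative library of pair 3) together at 85.3 to 136 CPM. Tcf4, which other cells express too, had the highest CPM of the 9 in every library, at 44.6 to 87.5. By position the members are scattered over 15 chromosomes, with clusters of Oas1a, Oas2 and Oas3 (120730333 to 120907521) and, apart from it, of Oasl1 and Oasl2 (114896936 to 114937915) on chromosome 5, 3 IFIT genes on chromosome 19 (34550694 to 34650009) and 3 guanylate-binding genes on chromosome 3 (142530342 to 142638008). On the log2 scale, pair 3 minus pair 1 was 0.97, 0.53 and 0.72 for Gbp2, Gbp3 and Gbp7, and 0.59, 0.14 and 0.49 for Ifit1, Ifit2 and Ifit3.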

How the data were processed

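RNA from sorted HSCs was sequenced in 6 libraries, 3 per population. The authors deposited raw read counts per Ensembl gene, as whole numbers without a header. The submitters' processing notes name cutadapt, STAR, HTSeq 0.6.1p1 and the builds GRCm38 and mm10; the strand setting and annotation release are not given in the sources used here, so counts of genes that overlap on opposite strands (among the members Oasl1, Irf1, Irf7, Usp18, Ifi35, Dhx58, Gbp2 and Eif2ak2) or that share sequence are uncertain.

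Symbols matched 49326 of 49585 identifiers. Exon lengths (union of all exons) and coordinates came from GENCODE M21 on GRCm38, and promoters from RefSeq. In that annotation exons of Gbp7, Igtp, Rtp4 and Irf9 overlap another gene on the same strand, so their counts are also uncertain. In R 4.3.3, genes were kept with filterByExpr, scaled by TMM and tested with edgeR 4.0.16 (estimateDisp, glmQLFit with the older estimator, glmQLFTest), with pair and population in the model; log2 CPM used a prior count of 2. Adjustment was Benjamini-Hochberg, over every tested gene. The pairing comes from the series' design text; once each population's mean was removed, the partners in a pair correlated at 0.34, 0.12 and 0.24. Alternatives were the fit without the replicate block, DESeq2 1.42.0, limma-voom (limma 3.58.1), other scalings and filters, leaving out each pair and, added after seeing the data, edgeR's newer estimator. The fit functions were tested on simulated data. The members and lists were chosen with earlier results of these data known. Values in every library are given for the 4 transcription factors, the 6 members with the smallest p-values by population and between pairs, and the 4 highest and lowest per length; of other pathway genes, the receptors and those with the smallest p-values are named; 1 gene of that rule is not reported here.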

Additional observations from a re-analysis of the deposited data

How the results depend on the processing

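By population 0 of 39 members passed the threshold in every alternative, including the fit without the replicate block (2 at an unadjusted p under 0.05), and each pair left out in turn. The smallest adjusted p-value of any member in any of them was 0.38. Among all genes the count of 2 became 0 without the replicate block (417 at an unadjusted p under 0.05), 0 where library totals were left unscaled (595), 11 by DESeq2, 7 with DESeq2 size factors, 80 with no filter, 13 with a mean of at least 10 counts, 6 with the newer estimator, and 2 to 41 when a pair was left out. The median log2 fold change of the members lay between -0.24 and 0.0018 with 1 pair omitted, the latter without pair 2. Between pairs the members passing went from 0 to 2 by DESeq2, to 2 with no filter (Gbp2 and Iigp1 in both) and to 0 to 7 when a pair was left out. All genes passing between pairs went from 17 to 5 without the population term, 329 by DESeq2, 7 with unscaled totals, 694 with no filter, 29 with a mean of at least 10 counts, 46 with the newer estimator, and 5 to 933 when a pair was left out. Leaving out a pair changes the samples in the fit, and another filter changes its genes. The cause of these shifts in the counts was not tested. Of single members' log2 fold changes, 312 values under the other alternatives kept their direction, while 18 members changed sign when a pair was left out: Ddx58 -0.22 to 0.030, Dhx58 -0.018 to 0.0018, Eif2ak2 -0.19 to 0.11, Ifi44 -0.43 to 0.10, Ifih1 -0.27 to 0.0044, Ifit2 -0.49 to 0.16, Ifit3 -0.49 to 0.0023, Ifitm3 -0.33 to 0.019, Iigp1 -0.55 to 0.0090, Irf7 -0.31 to 0.27, Irf9 -0.12 to 0.078, Isg15 -1.74 to 0.56, Oas2 -0.44 to 0.20, Oas3 -0.45 to 0.14, Oasl1 -0.12 to 0.34, Trim25 -0.28 to 0.012, Trim30a -0.27 to 0.52, Zbp1 -0.85 to 0.051. In each pair the ratio of summed levels moved by less than the spread between pairs with unscaled totals or without the 2 most abundant members, but with unscaled totals it was 1.06 in place of 0.97 in pair 1 and 0.92 in place of 1.01 in pair 3. No scaling shifted the median gene's fitted fold change by population by as much as 0.1 log2. Opposite shifts within pairs can cancel in that value. The TMM factors, CD38-positive first, were 0.900 and 0.984 in pair 1 and 1.06 and 0.965 in pair 3. Differences under 3 counts were not detectable.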
